A study of Rattus norvegicus with 9 samples.

Results

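The third phase of fasting (P3), in which a rat has used most of its fat and begins to lose protein quickly, was compared with the fed state in the tibialis anterior (TIB), a fast-twitch muscle of the lower leg. Messenger RNA levels were read on whole-transcript arrays, 1 array per rat. The comparison rests on the 3 arrays labelled P3 and the 3 arrays labelled Fed, 6 of the 9 arrays of the series. The other 3 arrays come from rats in the second phase (P2) and enter the estimate of the spread and a side-by-side reading near the end. All rats were young adult males of the Sprague Dawley strain, an outbred laboratory line with no engineered allele. Fed rats ate a standard diet up to sampling and had a full stomach, whereas P3 rats had water only and were killed the day after their daily loss of body mass had begun to accelerate. Time without food, loss of body mass and the recent meal of the fed rats differ together between the groups and cannot be told apart.

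Fasting animals pass through a long phase in which lipid is the main fuel and protein is spared. When lipid runs low, corticosterone rises, insulin stays low and muscle protein is broken down to amino acids, which feed the making of glucose in liver and kidney. In muscle fibres 2 routes remove protein. One tags single proteins with ubiquitin for the proteasome, a barrel-shaped protease, and the other, autophagy, wraps whole parts of the cell for delivery to lysosomes. Both are switched on in wasting muscle through FOXO transcription factors and the glucocorticoid receptor, while mTORC1, a kinase that senses amino acids and insulin, drives the making of protein.

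All values are log2 intensities, so that a difference of 1 is a doubling and a fold is 2 to the power of the difference. Differences are P3 minus Fed with their standard error (SE), fitted by limma. A gene was said to rise or fall when its p-value, adjusted over all 29215 probe sets by the Benjamini-Hochberg method, was under 0.05. Under the ANOVA and Tukey test of the study's methods, with a stricter threshold, 74 of 132 counts over gene lists differed by over 1.5 times from those given here. The arrays had been brought to a common distribution, so each level is relative to the other RNAs of that muscle and says nothing of the amount of RNA in it. Medians over all probe sets lay between 5.80 and 5.88 on the 6 arrays, and each of them correlated with the others of its group at a mean r of 0.993 to 0.994. The defining markers of the labelled tissue were present. Acta1, Ckm and Myh4, which encode the actin, creatine kinase and fastest myosin of skeletal fibres, had group means between 13.46 and 13.97.

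P3 shifted a large part of the transcriptome. Of 29215 probe sets 8538 passed, which is 29.2%, with 4627 higher and 3911 lower. Among the 14506 genes that could be named, 2647 rose, which is 18.2%, and 2479 fell, which is 17.1%, and these shares are the background for the groups below. The median difference over all genes was -0.01. The P3 and Fed rats did not overlap in 7020 genes, or 48.4%, and 5095 of the 5126 genes that passed were among them. The change was at least 2-fold in 833 genes that rose and 751 that fell, at least 4-fold in 146 and 158, and at least 8-fold in 39 and 45. Calls were rare among dim genes. When genes were ranked by mean signal and cut into 5 equal classes, 1.52% rose and 1.41% fell in the dimmest class, against 35.8% and 27.3% in the brightest, so the share of calls in a group also depends on how bright its members are.

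**Figure D1:**
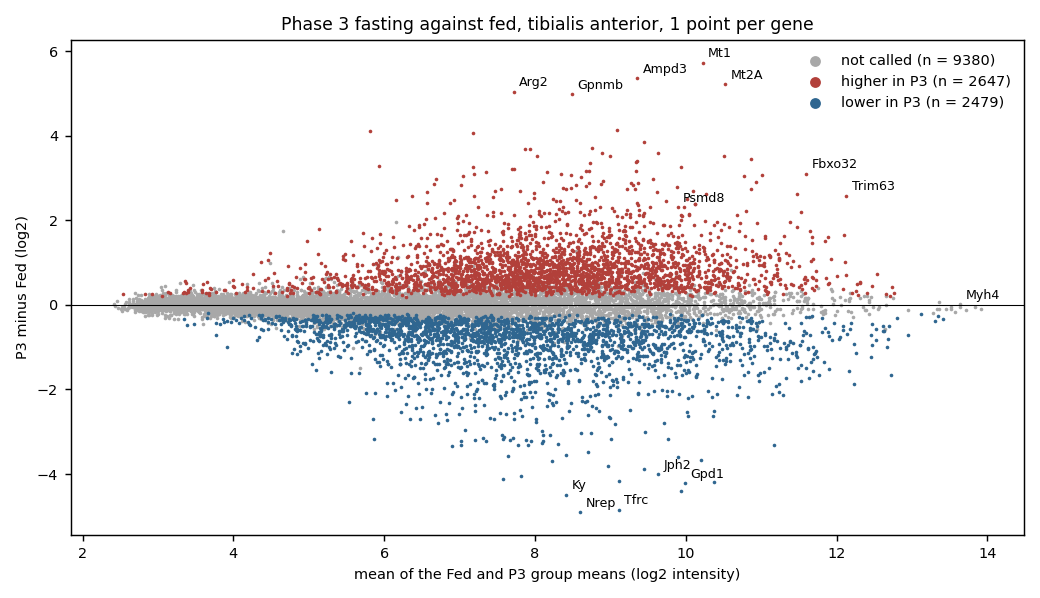
Difference between P3 and Fed (log2) for each of 14506 genes against the mean of both group means (log2 intensity). Genes that rose are red, genes that fell are blue and those not called are grey. Changes reached 5.72 upward, at Mt1, and -4.90 at Nrep, while Myh4, near the right edge, sat at 0.01.

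Among the named genes the largest rise was that of Mt1, a metallothionein, and Mt2A, another, was not far behind. Metallothioneins are small cysteine-rich proteins that bind zinc and copper. Mt1 stood at 7.37, 7.56 and 7.17 in the fed rats and at 13.00, 13.19 and 13.07 in the P3 rats, 52.7-fold higher (log2 5.72 ± 0.13, adjusted p = 1.01e-07). Mt2A went from 8.14, 7.91 and 7.69 to 13.01, 13.26 and 13.13, a 37.3-fold rise (log2 5.22 ± 0.18, adjusted p = 3.66e-07). For both genes the gap between the groups was far wider than the spread within either. Each has another probe set, which gave log2 differences of 5.94 and 5.66. Metallothionein genes are switched on by the zinc sensor MTF1 through metal response elements, and also by glucocorticoids. The 250 bases before each start site are shown because both genes rose together. Capitals mark the metal response core, TGCACNC or TGCGCNC on either strand, which has 6 matches before Mt1 (chr19:10832976-10833225, minus strand, GRCr8) and 4 before Mt2A (chr19:10838709-10838958, minus strand). The sequences are from RefSeq.
Mt1: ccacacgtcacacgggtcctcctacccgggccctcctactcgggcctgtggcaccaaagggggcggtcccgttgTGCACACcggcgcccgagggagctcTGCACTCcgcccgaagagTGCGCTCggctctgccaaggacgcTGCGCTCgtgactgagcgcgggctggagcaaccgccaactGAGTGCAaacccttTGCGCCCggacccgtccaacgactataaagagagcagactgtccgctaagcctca
Mt2A: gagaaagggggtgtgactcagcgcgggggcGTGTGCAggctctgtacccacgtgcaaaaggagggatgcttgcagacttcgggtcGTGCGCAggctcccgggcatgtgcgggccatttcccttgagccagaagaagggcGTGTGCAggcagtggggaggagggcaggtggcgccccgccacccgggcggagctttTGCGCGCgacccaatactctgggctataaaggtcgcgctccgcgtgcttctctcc
Among 11968 tested genes with such a window, 27% hold at least 1 match and 42 genes, or 0.351%, hold 4 or more. The share with at least 1 match was 31.2% among genes that rose and 32.2% among genes that fell. A match is a match of letters and was not tested for binding. The level of MTF1 itself differed by 0.35 ± 0.14 (adjusted p = 0.0902). Of 21 genes for metallothioneins and zinc transport 5 rose and 3 fell. The zinc exporters Slc30a2, Slc30a4 and Slc30a5 were the other risers, at 1.72 ± 0.23, 0.76 ± 0.10 and 0.52 ± 0.11. The brain form Mt3 did not pass, at -0.19 ± 0.10.

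Among called genes without overlap whose higher group averaged at least 6 on the log2 scale, the 15 largest rises include both metallothioneins. Ampd3, the non-muscle form of AMP deaminase, which turns AMP into IMP, went from 6.69, 6.71 and 6.62 to 12.03, 11.99 and 12.07 (40.9-fold, log2 5.36 ± 0.12). Arg2, the mitochondrial arginase, went from 4.82, 5.36 and 5.42 to 10.72, 10.43 and 9.57 (log2 5.04 ± 0.28). Gpnmb, a glycoprotein of lysosomes and melanosomes, rose from 5.83, 5.84 and 6.34 to 10.64, 11.35 and 10.97 (log2 4.98 ± 0.19). The P3 rats agreed closely for Ampd3, whereas Arg2 was lower in P3 rat 3 than in the others. Slc7a6, a carrier of basic and neutral amino acids, rose by 4.14. Scgb2a1, a secreted uteroglobin-type protein, stood at 3.84, 3.68 and 3.78 in fed and 7.59, 8.66 and 7.36 in P3 rats, with P3 rat 2 highest. The rest of the 15 were Cyp2e1, a cytochrome P450 that oxidises ketones (4.07 ± 0.34), Tmem140, Ddit4, Spsb1, Ctdspl, Gabarapl1, Tgif1 and Tp53inp1, at 3.84 to 3.53. Ddit4 restrains mTORC1, Gabarapl1 and Tp53inp1 belong to autophagy, and Tgif1 is a repressor in the TGF-beta pathway. Adjusted p-values of the 15 ranged up to 2.53e-05.

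The 15 largest falls include genes of fibre structure, matrix and energy metabolism. Nrep, a protein linked to matrix and nerve repair, stood at 10.96, 11.07 and 11.13 in fed and 6.28, 6.39 and 5.79 in P3 muscle (29.9-fold lower, log2 -4.90 ± 0.20). Tfrc, the transferrin receptor that carries iron into cells, went from 11.59, 11.59 and 11.41 to 6.70, 6.86 and 6.52 (log2 -4.84 ± 0.14). Ky, a protease-like protein of the Z-disc needed for muscle growth, went from 10.69, 10.51 and 10.79 to 6.0, 6.33 and 6.20 (log2 -4.49 ± 0.13). In all 3 genes the P3 rats lay close together and far below any fed rat. Sypl2 and Jph2, which hold the tubule and reticulum membranes of the triad together, fell, at -4.39 and -4.01. Gpd1, which links glycolysis to glycerol, fell (-4.22 ± 0.11), as did Fbp2, the muscle fructose bisphosphatase (-3.69 ± 0.29), Slc16a3, the lactate exporter (-3.87 ± 0.16), and Fabp3, the fatty acid carrier of muscle (-3.60 ± 0.20). Mybph, a myosin-binding protein, Plcd4, a phospholipase, and Itgb6, an integrin, fell, at -4.16, -4.12 and -4.04. The collagen chains Col1a1, Col3a1 and Col1a2 complete the 15 and are described with the matrix. Because these 30 genes were chosen by size and by the absence of overlap, neither is a finding about them.

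**Figure D2:**
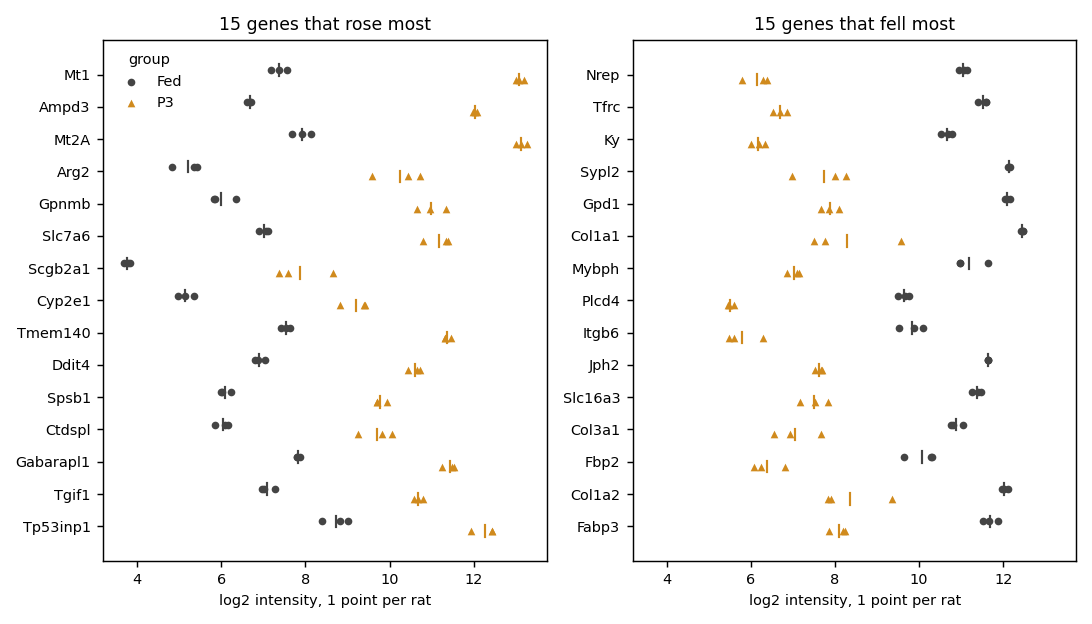
Log2 intensity of each rat for the 15 genes that rose most (left) and the 15 that fell most (right), with fed rats as grey circles, P3 rats as orange triangles and the group mean as a bar. Ampd3 stood at 6.62 to 6.71 in the fed rats and 11.99 to 12.07 in the P3 rats, and the P3 rats spread most for Col1a1, from 7.50 to 9.56.

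Most ubiquitin ligases linked to wasting rose. Of 19 measured ligases and adaptors linked to atrophy 13 rose and 1 fell, with a median of 0.80. Fbxo32 (atrogin-1), which tags MyoD and translation factors, went from 9.84, 10.43 and 9.88 to 13.17, 13.19 and 13.08 (8.55-fold, log2 3.10 ± 0.14, adjusted p = 9.65e-07). Trim63 (MuRF1), which tags myosin and other thick filament proteins, went from 10.81, 11.01 and 10.70 to 13.44, 13.33 and 13.49 (5.98-fold, log2 2.58 ± 0.13, adjusted p = 1.39e-06). The ranges of fed and P3 rats were more than 2 apart for both. Fbxo30, a ligase under BMP control, rose by 2.40 ± 0.21, Cblb, which tags insulin receptor substrates, by 2.15 ± 0.14, Fbxo31 by 1.89 ± 0.17 and the ubiquitin-binding Zfand5 by 1.84 ± 0.08. Asb5, Nedd4l, Trim54 (MuRF3), Mdm2, Rnf14, Siah1 and Traf6 rose by 1.17 to 0.50. The 1 gene that fell was Trim55 (MuRF2), at -0.82 ± 0.17, so the 3 MuRF genes did not move together. Fbxo21, Mul1, Nedd4, Stub1 and Asb2 did not pass, at 0.11 to -0.44. The window before Trim63 is shown since it holds a FOXO core, TGTTTAC, in capitals (chr5:151816986-151817235, plus strand, GRCr8, RefSeq).
Trim63: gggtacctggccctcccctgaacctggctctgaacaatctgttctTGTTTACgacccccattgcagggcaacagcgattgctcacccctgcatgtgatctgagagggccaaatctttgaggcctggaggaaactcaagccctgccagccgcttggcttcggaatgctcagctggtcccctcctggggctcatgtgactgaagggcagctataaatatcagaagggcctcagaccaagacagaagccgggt
On either strand this core lies in 2.57% of all windows, in 2.93% of those of genes that rose and in 1.47% of those of genes that fell. Most wasting genes lacked it in this window. It was in 2 of 16 windows of the ligases and adaptors, 0 of 29 of proteasome genes and 0 of 28 of autophagy genes.

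Proteasome genes rose almost as a whole. Of 33 measured genes on the proteasome list 30 rose and none fell, with a median of 1.11. The list is wider than the core and cap genes counted below. Of the 19S cap, which unfolds tagged proteins, 18 measured subunits rose, from 0.69 (Psmc5) to 2.31 (Psmd8), and the small subunit Sem1 did not pass (-0.26 ± 0.18). Psmd8 went from 8.70, 8.74 and 8.77 to 10.94, 10.99 and 11.21, Psmd11 rose by 1.90 ± 0.10, and of the core subunits Psma5 rose most, by 1.75 ± 0.07. In the 20S core 11 of 13 rose. The exceptions in the core were Psmb5 and Psmb6, which carry peptide-cutting sites. Psmb5 stood at 9.77, 9.76 and 9.70 in fed and 9.64, 9.70 and 9.76 in P3 rats, a difference of -0.04 ± 0.13 with a 95% interval from -0.34 to 0.25. Psmb6 differed by 0.02 ± 0.15, with an interval from -0.32 to 0.37, and the groups overlapped in both. Of the immune forms of the core Psmb9 and Psmb10 fell, at -0.63 ± 0.11 and -0.47 ± 0.14, and Psmb8 did not pass (-0.24 ± 0.12). The Psmb10 call was lost without any 1 of the 3 Fed rats or P3 rat 2 or 3. Psme4 (PA200), an alternative cap, rose by 1.60 ± 0.11. Around the proteasome 5 of 15 genes for ubiquitin and its conjugating enzymes rose and 3 fell, with Ube2j1 (1.56 ± 0.09) and Ube2g2 (1.41 ± 0.08) highest and Ube2d1 (-1.10 ± 0.15) lowest. Of 22 deubiquitinating enzymes 9 rose, led by Usp53 (2.09 ± 0.21) and the proteasome-bound Usp14 (1.31 ± 0.09), and Usp15 fell (-0.63 ± 0.10).

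Most genes of autophagy rose, and those of the lysosome split. Of 34 autophagy genes 21 rose and 2 fell, with a median of 0.66. Gabarapl1 and Map1lc3b encode proteins that are joined to the growing vesicle membrane. Gabarapl1 stood at 7.88, 7.81 and 7.81 in fed and 11.49, 11.25 and 11.54 in P3 rats (log2 3.59 ± 0.11). Map1lc3b stood at 10.31, 10.46 and 10.52 in fed and 12.67, 12.57 and 12.63 in P3 rats (log2 2.19 ± 0.08). The groups did not overlap in either gene. Ulk1, the kinase that starts the process, rose by 2.24 ± 0.11, the cargo receptors Sqstm1 (p62) and Nbr1 by 1.75 ± 0.08 and 1.61 ± 0.10, and the mitophagy receptor Bnip3 by 1.66 ± 0.08. Another mitophagy receptor, Fundc1, fell (-0.98 ± 0.11), as did Atg10 (-0.83 ± 0.13). Becn1, Pink1 and Map1lc3a did not pass, at -0.18 ± 0.15, 0.08 ± 0.11 and -0.25 ± 0.14. The 37 lysosomal genes split, with 11 up and 10 down and a median of 0.08. The protease Ctsl went from 9.55, 9.36 and 9.60 to 12.28, 12.15 and 12.30 (6.68-fold, log2 2.74 ± 0.09). The membrane proteins Lamp2 and Npc1 rose by 1.53 ± 0.10 and 1.37 ± 0.18, the glycogen-cutting Gaa by 1.35 ± 0.08 and Ctsd by 0.58 ± 0.10. Ctsh, Gla, Lipa and Manba fell, at -1.0 ± 0.18, -0.92 ± 0.15, -0.83 ± 0.17 and -0.68 ± 0.14, and so did the regulator Tfeb (-0.57 ± 0.14). Ctsb stood at 10.61, 10.63 and 10.73 in fed and 10.56, 10.56 and 10.55 in P3 rats and did not pass. Mitf, a relative of Tfeb, rose (1.07 ± 0.11). Calpain 3, the protease bound to titin, fell by 1.90, while Capn2 rose (1.19 ± 0.09). Among genes of cell death the survival factors Bcl2l1 and Mcl1 rose, by 2.88 ± 0.23 and 1.51 ± 0.10, as did the pro-death Bid (2.18 ± 0.15). Bax, Bad, Bak1, Casp8, Casp9 and Apaf1 did not pass, at 0.04 to -0.15.

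Genes of the machinery that makes ribosomes rose, whereas most genes of ribosomal proteins did not pass. Of 35 factors for ribosome biogenesis 30 rose and none fell, with a median of 0.96. The polymerase I subunit Polr1e, which helps transcribe ribosomal RNA, went from 6.80, 7.10 and 7.05 to 8.67, 9.02 and 8.90 (log2 1.88 ± 0.12). Nob1, which trims the small subunit RNA, rose by 2.24 ± 0.16, and the nucleolar proteins Npm1 and Ncl by 0.96 ± 0.16 and 0.95 ± 0.09. Myc, which drives this group of genes, stood at 6.17, 5.99 and 6.10 in fed and 9.19, 9.12 and 9.59 in P3 rats (9.28-fold, log2 3.21 ± 0.13). Of 66 cytosolic ribosomal proteins 12 rose and none fell, with a median of 0.16. The count was 6 without Fed rat 1 or 2, 7 without P3 rat 3 and 21 without P2 rat 1. Rpl3 stood out with 1.18 ± 0.12. Many of these genes have near-identical copies, and signals could be shared among them. Of 38 translation factors 23 rose and 2 fell, with a median of 0.50. The largest rise was that of Eif4ebp1, which blocks the cap-binding factor eIF4E when mTORC1 is off, from 8.31, 8.34 and 8.20 to 10.90, 10.98 and 10.97 (log2 2.67 ± 0.10). Eif4g3 rose by 1.93 ± 0.07, while Eif4e itself fell (-0.55 ± 0.09) and so did Eef2k (-0.71 ± 0.11). Of 19 cytosolic aminoacyl-tRNA synthetases 9 rose, by 0.29 to 0.78, and none fell.

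Most genes called among proteins of the mitochondrial ribosome were lower. Of 71 proteins of the mitochondrial ribosome 40 fell and 4 rose, with a median of -0.40. Mrpl48 stood at 8.73, 8.62 and 8.52 in fed and 6.82, 6.83 and 6.81 in P3 rats (log2 -1.80 ± 0.07). Mrpl12 and Mrpl40 fell, at -1.66 and -1.65. Mrpl41 was the exception, with 8.43, 8.35 and 8.13 in fed and 11.71, 11.55 and 11.41 in P3 rats (9.55-fold, log2 3.25 ± 0.13). A second probe set of Mrpl41 had almost the same values on every array, and whether they hold the same probes was not tested. The next largest rise in the group was that of mrpl9, by 0.75 ± 0.14. Of 11 mitochondrial tRNA synthetases 5 fell, led by Tars2 (-1.08 ± 0.11), and Rars2 rose (0.56 ± 0.10).

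**Figure D3:**
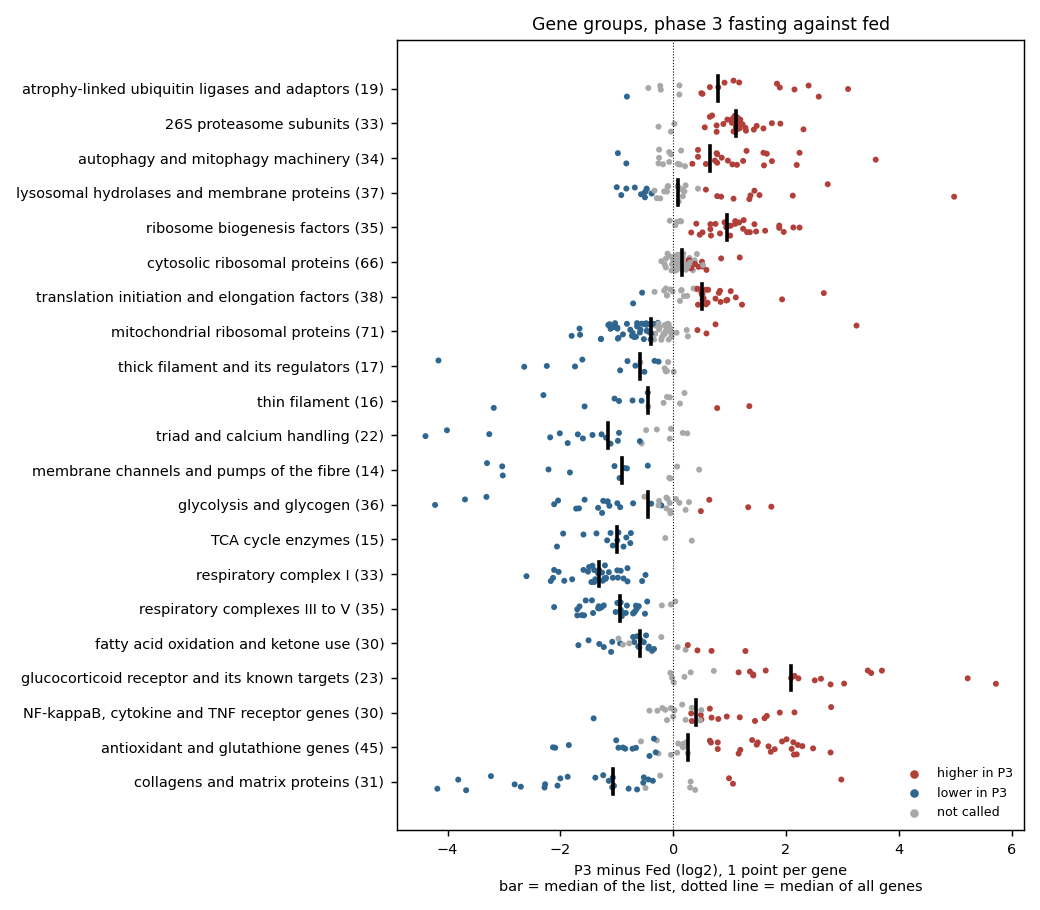
Difference between P3 and Fed (log2) of each measured member of 21 gene groups, with the number of members in brackets, red for members that rose, blue for those that fell and grey for those not called. The black bar is the median of the group and the dotted line the median of all genes. Medians ran from -1.31 for complex I to 2.09 for the glucocorticoid targets.

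Among genes of the contractile proteins, most of those of slow fibres fell. The fast myosins Myh4 and Myh1 did not pass. Myh4 stood at 13.64, 13.65 and 13.61 in fed and 13.62, 13.66 and 13.64 in P3 rats, a difference of 0.01 ± 0.06 with a 95% interval from -0.13 to 0.14. Myh1 differed by -0.09 ± 0.09 (interval -0.28 to 0.11), Acta1 by -0.11 ± 0.06 (interval -0.25 to 0.02) and titin (Ttn) by -0.11 ± 0.06 (interval -0.25 to 0.03). All 4 gave log2 intensities above 12, near the top of the measured range, and whether the array compresses differences there was not tested. Among other fast forms the light chain Myl1 and troponin I (Tnni2) fell, at -0.26 ± 0.06 and -0.72 ± 0.07. Myl2, a light chain of slow myosin, went from 9.14, 9.33 and 9.41 to 7.04, 6.82 and 7.32 (log2 -2.24 ± 0.25), Tnni1, the slow troponin I, from 9.53, 9.71 and 10.19 to 7.74, 7.21 and 7.59 (log2 -2.30 ± 0.31) and Myh7, the slow myosin, from 10.80, 11.11 and 11.26 to 10.50, 9.89 and 9.95 (log2 -0.94 ± 0.21). In total 6 of 7 slow fibre markers fell, with a median of -1.04. Their mean level lay between 10.45 and 10.73 in the fed rats and between 8.91 and 9.55 in the P3 rats. The part of fibre type in the other results was not tested. Of 10 markers of skeletal muscle fibres 3 fell, with a median of -0.11. This list includes the fast forms Myh4, Myh1, Tnni2 and Pvalb. Here and below, fewer cells or fibres of a kind and less RNA in each of them cannot be told apart in whole muscle.

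Of 17 thick filament genes 11 fell and of 16 thin filament genes 8 fell and 2 rose, with medians of -0.58 and -0.45. Both lists hold slow fibre forms named above. Smyd1, a methyltransferase that helps myosin fold and assemble, fell from 11.27, 11.50 and 11.29 to 8.54, 8.67 and 8.92 (log2 -2.64 ± 0.11). Actc1, the heart form of actin, varied widely in the fed rats at 9.53, 11.77 and 10.49 and stood at 7.89, 7.12 and 7.25 in P3 (log2 -3.18 ± 0.48). Lmod2, which lengthens thin filaments, rose by 1.35 ± 0.14 and Klhl40, which stabilises them, by 0.78 ± 0.11. At the Z-disc 8 of 18 genes fell and 1 rose, with Ldb3 at -2.13 ± 0.21 and Xirp2 at -1.66 ± 0.16 after Ky, and Pdlim3 higher by 1.01 ± 0.07. The desmin gene (Des) did not pass, at -0.09 ± 0.11.

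Genes that couple excitation to contraction fell. Of 22 genes of the triad and calcium handling 15 fell and none rose, with a median of -1.15. Casq2, a calcium buffer of the reticulum, went from 9.89, 9.61 and 9.67 to 6.61, 6.08 and 6.71 (log2 -3.26 ± 0.20), the coupling protein Stac3 from 10.71, 10.73 and 10.64 to 8.65, 8.70 and 8.70 (log2 -2.01 ± 0.09) and parvalbumin (Pvalb), the soluble calcium buffer of fast fibres, from 13.17, 13.12 and 13.22 to 11.28, 11.33 and 11.28 (log2 -1.87 ± 0.11). The fed and P3 rats were well separated in all of these. Cav3, Cacnb1 and Bin1 fell, at -2.18, -1.69 and -1.43. The calcium release channel Ryr1 and the pump Atp2a1 did not pass, at -0.29 ± 0.11 and -0.04 ± 0.06. Of 14 membrane channels and pumps 10 fell, with a median of -0.90. The chloride channel Clcn1, which steadies the resting membrane, went from 9.97, 10.01 and 9.87 to 6.65, 6.74 and 6.56 (9.84-fold lower, log2 -3.30 ± 0.08). The water channel Aqp4 and the sodium pump subunit Atp1b1 fell, at -3.03 and -3.02. In the dystrophin complex 5 of 8 fell, led by the syntrophin Sntb1 (-3.32 ± 0.16) and the sarcoglycan Sgcd (-2.67 ± 0.11), Nos1 rose (1.25 ± 0.23) and Dmd did not pass (0.20 ± 0.15).

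Of 17 genes of the neuromuscular junction and of the response to nerve injury 7 fell and 4 rose, with a median of -0.21. Acetylcholinesterase (Ache) went from 9.19, 8.97 and 9.15 to 6.02, 6.12 and 5.93 (log2 -3.08 ± 0.10). The receptor subunits Chrne, Chrna1 and Chrnb1 fell, at -1.13, -1.11 and -0.95, and the anchoring proteins Dok7 and Rapsn too, at -1.41 and -1.12. Colq, which anchors acetylcholinesterase, fell (-0.28 ± 0.08), a call lost without Fed rat 2 or 3 or P3 rat 3. The receptor subunit Chrnd and agrin (Agrn) did not pass, at -0.22 ± 0.21 and -0.21 ± 0.10, and Lrp4, the receptor of agrin, rose by 0.71 ± 0.16. Genes known to rise when a nerve is cut were mixed. The embryonic subunit Chrng stood at 5.02, 5.02 and 5.02 in fed and 5.29, 4.88 and 5.02 in P3 rats, and Myog, Musk and Ncam1 differed by 0.02 ± 0.32, 0.05 ± 0.10 and -0.17 ± 0.14. None of these passed, whereas Gadd45a, which belongs to the same response and also to several stress responses, rose by 2.39 ± 0.21 and Hdac4 by 0.74 ± 0.09. Runx1 rose by 0.29 ± 0.08, a call lost without Fed rat 1 or 2 or P3 rat 1 or 3. The myogenic factor Myod1 fell from 8.70, 8.93 and 9.86 to 5.66, 6.31 and 6.02 (log2 -3.17 ± 0.32), with no overlap between groups. Of 23 myogenic and satellite cell genes 9 fell and 4 rose.

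Genes of mitochondrial respiration fell almost without exception. All 33 measured genes listed under complex I fell, at -0.49 to -2.60, with a median of -1.31. The smallest fall was that of Ndufa4, which is listed there by its name. Ndufb8 stood at 10.04, 10.03 and 9.92 in fed and 7.40, 7.48 and 7.34 in P3 rats (log2 -2.60 ± 0.10). Of 35 genes of complexes III to V 32 fell, with a median of -0.95, among them all 14 of ATP synthase. The 3 that did not pass, Cox15, Surf1 and Cox17, assemble complex IV rather than form it. Of 15 genes of the tricarboxylic acid cycle 13 fell, with a median of -0.99, including the 4 of complex II. Mdh1, the cytosolic malate dehydrogenase, went from 12.18, 12.33 and 12.31 to 10.35, 10.09 and 10.20 (log2 -2.06 ± 0.12). Idh2 did not pass, at 0.33 ± 0.12. The coactivators of mitochondrial genes fell as well, Ppargc1b from 8.76, 8.92 and 8.76 to 6.12, 6.25 and 6.43 (log2 -2.55 ± 0.10) and Ppargc1a from 8.74, 8.85 and 8.68 to 6.70, 7.19 and 6.63 (log2 -1.91 ± 0.14). The receptors they act through, Esrra and Esrrg, fell, at -1.41 and -1.39. In contrast, nuclear factors that switch on respiratory genes were higher, with Gabpa at 1.0 ± 0.09 and Nrf1 at 0.77 ± 0.08. Tfam rose by 0.53 ± 0.15 (adjusted p = 0.0246), a call that was lost without Fed rat 2 or 3 or P3 rat 2 or 3. Polrmt, the mitochondrial RNA polymerase, rose by 0.45 ± 0.11, a call lost without P3 rat 2. Of 33 genes of mitochondrial biogenesis, import and dynamics 15 fell and 7 rose.

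The respiratory genes Ndufs5 and Atp5mc3, which fell, at -1.93 and -2.11, hold in their windows the core of an estrogen-related receptor element, CAAGGTCA on either strand (capitals). Ndufs5 lies at chr5:141264403-141264652 and Atp5mc3 at chr3:79220665-79220914, both on the minus strand of GRCr8 and read from RefSeq.
Ndufs5: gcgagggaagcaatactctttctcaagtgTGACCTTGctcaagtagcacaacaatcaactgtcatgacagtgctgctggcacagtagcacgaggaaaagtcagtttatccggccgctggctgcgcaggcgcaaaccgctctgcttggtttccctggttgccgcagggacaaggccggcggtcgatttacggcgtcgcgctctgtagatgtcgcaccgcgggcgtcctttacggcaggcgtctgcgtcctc
Atp5mc3: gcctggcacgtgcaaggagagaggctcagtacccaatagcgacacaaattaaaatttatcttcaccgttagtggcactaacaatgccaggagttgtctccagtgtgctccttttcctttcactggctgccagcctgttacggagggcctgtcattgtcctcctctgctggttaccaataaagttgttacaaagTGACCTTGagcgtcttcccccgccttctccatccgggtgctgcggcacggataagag
The core was present in 108 of 11968 windows of tested genes, or 0.902%. Most respiratory genes lacked it, with 1 of 31 windows of complex I genes and 1 of 30 of complexes III to V holding it. It was found in 32 of 2042 windows of genes that fell, or 1.57%, and in 5 of 2253 of genes that rose, or 0.222%. The median GC content was 60.4% in both of these sets and 57.2% in all windows. Other motifs were searched on both strands of the same windows. The MEF2 site, which serves muscle genes and was written as CTATTTATA, CTAAAAATA or CTATAAATA, was in 1.62% of windows of genes that fell and 0.444% of those that rose, against 1.09% of all. The E-box CACGTG was in 10.5% of windows of genes that rose and 7.1% of those that fell, against 6.92% of all. In the same order (genes that rose, genes that fell, all), the NRF1 core was in 11.5%, 7.64% and 6.74%, the antioxidant element TGACNNNGC in 14.3%, 11.9% and 11.7%, the ATF4-type element TGATGNAA in 2.13%, 1.37% and 2.66%, and the myogenic E-box CAGCTG in 11.9%, 14.3% and 12.3%. The NRF1 core was in 5 of 31 windows of complex I genes (16.1%) and 5 of 30 of complexes III to V (16.7%). The Ndufs5 window shown above holds it too, not in capitals. Among ribosome biogenesis genes, most of which rose, it was in 8 of 32 windows (25%). These shares describe letters only.

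Genes of sugar metabolism fell at many steps while some entry genes rose. Of 36 genes of glycolysis and glycogen 19 fell and 4 rose, with a median of -0.45. Pgam2, the muscle phosphoglycerate mutase, went from 12.84, 12.69 and 12.96 to 9.58, 9.54 and 9.43 (9.92-fold lower, log2 -3.31 ± 0.09). Ldha, which makes lactate, went from 13.55, 13.57 and 13.53 to 11.93, 11.90 and 11.81 (log2 -1.67 ± 0.06) and Gys1, the muscle glycogen synthase, from 10.78, 10.99 and 10.75 to 9.12, 8.48 and 8.80 (log2 -2.04 ± 0.17). The phosphorylase kinase subunits Phkg1, Phka1 and Phkb fell, at -2.11, -1.24 and -0.71. Gapdh and Aldoa did not pass, at -0.05 ± 0.06 and -0.12 ± 0.06, and both are near the top of the measured range. Those that rose were Pfkfb3, which raises the activator of phosphofructokinase (1.74 ± 0.31), the basal glucose carrier Slc2a1 (1.33 ± 0.12), Ppp1r3a (0.49 ± 0.09) and Hk2 (0.64 ± 0.19, adjusted p = 0.0339). The Hk2 call was lost without any 1 of the 3 Fed rats, P2 rat 3, or P3 rat 1 or 2. At the step from pyruvate to acetyl-CoA 9 of 14 genes fell and 3 rose. Pdk4, the kinase that shuts pyruvate dehydrogenase, went from 9.74, 10.19 and 10.54 to 12.82, 12.67 and 12.85 (6.17-fold, log2 2.62 ± 0.18). These are RNA levels, and the study's Western blots showed no change in the proteins PDK4, FABP3 and ATP5A1, a subunit of ATP synthase. Its relatives Pdk1 and Pdk2 fell, at -0.95 ± 0.08 and -0.44 ± 0.11, and the phosphatase Pdp2, which reverses the kinases, rose by 0.99 ± 0.18. The enzyme subunits Dlat, Pdhb, Pdha1 and Dld and the pyruvate carriers Mpc2 and Mpc1 fell, at -2.16, -1.26, -1.05, -0.82 ± 0.16, -1.55 and -1.21, as did Pdpr (-0.98 ± 0.14), which regulates the phosphatase. The subunit Pdhx rose by 0.46 ± 0.10.

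Genes of fat handling moved in both directions. Pnpla2, the lipase that opens triglyceride stores, went from 9.74, 9.77 and 9.74 to 11.75, 11.62 and 11.68 (log2 1.93 ± 0.13), and its inhibitor G0s2 from 9.61, 10.62 and 10.33 to 6.63, 6.47 and 6.84 (log2 -3.54 ± 0.22), with no overlap in either. The uptake protein Cd36 rose by 1.47 ± 0.14 and Acsl4 by 2.73 ± 0.08, whereas the acyl-CoA synthetases Acsl1 and Acsl6 fell, at -1.73 and -3.08. Of 31 genes for uptake, droplets and lipolysis 7 rose and 14 fell. The 7 were 4 without Fed rat 1, or without P3 rat 2 or 3. Of 30 genes of fatty acid oxidation and ketone use 19 fell and 4 rose, with a median of -0.59. The 4 were 2 without Fed rat 1 or 3 or P3 rat 1 or 2. Hadh went from 10.99, 11.04 and 10.89 to 9.33, 9.42 and 9.14 (log2 -1.68 ± 0.11) and the carnitine carrier Slc25a20 fell by 1.31. Ehhadh, of the peroxisome, rose by 1.28 ± 0.18. The gatekeeper Cpt1b did not pass, at -0.21 ± 0.11, nor did Ucp3, at -0.97 ± 0.38, where the fed rats ranged from 8.92 to 10.35. Of 30 genes of fatty acid and sterol synthesis 11 fell and 5 rose. Insig1, which holds back sterol synthesis, rose by 3.05 ± 0.11, and Scd and Mlxipl, of fatty acid synthesis, fell, at -1.18 and -1.90.

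Genes of amino acid metabolism moved in both directions as well. For branched-chain amino acids 9 of 19 genes rose and 5 fell. Dbt, a subunit of the committed dehydrogenase, went from 9.52, 9.70 and 9.84 to 11.93, 12.06 and 11.73 (log2 2.22 ± 0.16), Bckdha rose by 0.98 ± 0.12 and Bckdk, the kinase that turns the complex off, fell (-0.90 ± 0.11). The 9 were 5 without Fed rat 2. Of 22 genes of glutamine, alanine, aspartate and proline metabolism 7 rose and 7 fell. The alanine and aspartate transaminases fell, with Gpt2 at 9.68, 9.64 and 9.79 in fed and 7.03, 7.60 and 6.96 in P3 rats (log2 -2.51 ± 0.20), Gpt at -2.14 ± 0.16 and Got1 at -1.80 ± 0.16. Cth, of cysteine synthesis, rose from 5.31, 5.27 and 5.16 to 8.0, 8.28 and 8.0 (log2 2.85 ± 0.10), and Ass1, which forms argininosuccinate, by 1.14 ± 0.16. Of 27 amino acid carriers 8 rose and 4 fell. After Slc7a6 the largest rise was that of Slc7a8, from 7.45, 7.04 and 7.21 to 10.73, 10.61 and 10.90 (log2 3.51 ± 0.19), and the glutamine carrier Slc38a3 fell from 8.89, 9.08 and 9.12 to 6.98, 6.99 and 6.90 (log2 -2.07 ± 0.11). Of 13 polyamine genes the catabolic Sat1 rose, from 7.13, 7.01 and 7.15 to 10.31, 10.23 and 10.23 (log2 3.16 ± 0.09), and Oaz1, Oaz2 and Sms fell, at -0.55, -0.68 and -0.81, while Odc1 did not pass (-0.14 ± 0.09). Of 20 genes of purine nucleotides and phosphocreatine 5 rose and 9 fell. With Ampd3, Xdh, which makes uric acid, rose from 8.34, 8.31 and 8.46 to 10.96, 10.31 and 10.76 (log2 2.31 ± 0.22). The AMP nucleotidase Nt5c1a fell from 9.54, 9.66 and 9.50 to 6.11, 6.42 and 6.47 (log2 -3.23 ± 0.13). The muscle AMP deaminase Ampd1 fell (-0.31 ± 0.09), a call lost without any 1 of the 3 Fed rats or P3 rat 1 or 2. The creatine-making Gamt fell by 1.97, and creatine kinase (Ckm) did not pass, at -0.11 ± 0.06.

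Most of the listed targets of the glucocorticoid receptor rose, in a list chosen with earlier results of these data known. Of 23 genes, which include the receptor, the metallothioneins and Pdk4, 17 rose and none fell, with a median of 2.09. Klf15, a factor that turns on amino acid breakdown, went from 6.11, 6.09 and 6.61 to 9.87, 9.51 and 9.97 (11.4-fold, log2 3.51 ± 0.18). Per1 went from 7.25, 7.04 and 6.65 to 9.59, 9.12 and 9.75 (log2 2.51 ± 0.21). Fkbp5, a brake on the receptor, was at 7.53, 5.99 and 7.78 in fed and 9.80, 10.41 and 10.18 in P3 rats (log2 3.03 ± 0.45), with Fed rat 2 well below the others, and the difference was 2.47 without that rat. The receptor gene Nr3c1 stood at 10.46, 10.42 and 10.40 in fed and 10.40, 10.43 and 10.49 in P3 rats, a difference of 0.01 ± 0.20 with an interval from -0.45 to 0.47. Dusp1, Hsd11b1, Angptl4, Lcn2 and Tat did not pass, at 0.72 ± 0.26, 0.31 ± 0.17, 0.20 ± 0.18, -0.02 ± 0.14 and -0.05 ± 0.07.

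Genes of insulin and growth signalling moved in both directions. Of 27 genes 9 rose and 11 fell. Foxo1 and Foxo3 encode factors that switch on ligases and autophagy. Foxo1 went from 7.73, 8.02 and 7.92 in fed to 10.72, 10.66 and 10.80 in P3 rats (log2 2.83 ± 0.15) and Foxo3 from 7.41, 7.40 and 7.38 to 9.86, 9.80 and 9.73 (log2 2.40 ± 0.12). The receptors Igf1r and Insr rose by 2.93 ± 0.11 and 1.38 ± 0.09. Igf1 itself fell (-1.10 ± 0.22), as did Irs1 (-0.94 ± 0.19), Akt1 (-0.63 ± 0.12) and Akt2 (-0.67 ± 0.13). None of these falls passed the ANOVA and Tukey test of the study's methods, and the study lists Akt1 and Akt2 as not significant. In the mTORC1 pathway 12 of 27 rose and 5 fell. The kinase Mtor rose by 0.31 ± 0.09, a call lost without Fed rat 1 or 3 or P3 rat 2 or 3. Sesn1, an inhibitor upstream, rose by 2.79 ± 0.14 while its relative Sesn3 fell (-2.22 ± 0.15), and the amino acid-sensing GTPases Rragc and Rraga rose by 0.67 ± 0.08 and 0.63 ± 0.11 while Rragd fell by 2.03. Of 34 genes of myostatin, activin, BMP and SMAD signalling 14 fell and 4 rose. Mstn (myostatin), the muscle's own growth brake, went from 9.19, 8.94 and 9.0 to 5.94, 7.55 and 6.18 (log2 -2.49 ± 0.43, adjusted p = 0.00192), with P3 rat 2 highest of its group.

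Some stress and cytokine genes rose. Of 29 genes tied to ATF4 and stress 11 rose and 5 fell. Cdkn1a, a brake on cell division, went from 7.16, 6.98 and 6.98 to 10.37, 10.36 and 10.49 (log2 3.36 ± 0.31), Ppp1r15a rose by 2.77 ± 0.13 and Atf4 by 1.04 ± 0.09. The amino acid-response genes Asns, Trib3, Fgf21 and Gdf15 did not pass, at -0.11 ± 0.14, 0.09 ± 0.12, 0.08 ± 0.09 and 0.02 ± 0.07, and Psat1 fell (-1.05 ± 0.09). Of 30 genes of NF-kappaB and cytokine signalling 15 rose and 1 fell, with a median of 0.41. The receptor genes Il6r, Il6st and Osmr rose by 2.80 ± 0.14, 1.62 ± 0.10 and 1.18 ± 0.23, and the inhibitor Nfkbia by 2.15 ± 0.19. The cytokine genes Il6, Tnf and Il1b did not pass. Il6 stood at 4.02, 3.87 and 3.92 in fed and 4.25, 4.07 and 4.98 in P3 rats, Tnf differed by -0.42 ± 0.15 and Il1b by -0.04 ± 0.06. Il6 was dim, and few genes of any kind were called at such levels, so its lack of a call does not show that it was unchanged. It passed as higher without P3 rat 2, and Tnf passed as lower when probe sets with a mean under 5 were left out. Among 17 clock genes 8 rose and 4 fell. All rats were killed in the late morning. Dbp was lower (-1.05 ± 0.27, adjusted p = 0.0155) and Bmal1 was higher by 0.83 ± 0.24 (adjusted p = 0.0312). The Dbp call was lost without P3 rat 1 and the Bmal1 call without Fed rat 1 or any 1 of the P3 rats. Vegfa, the main signal for new vessels, fell from 10.46, 10.44 and 10.44 to 7.21, 6.78 and 6.91 (11.1-fold lower, log2 -3.48 ± 0.19), and 13 of 23 secreted muscle factors fell.

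Iron and redox genes moved in both directions. Of 26 iron genes 7 fell and 3 rose. The 3 were 6 without P2 rat 1. Hmox1, which breaks down haem, went from 5.36, 5.52 and 6.06 to 8.93, 8.72 and 8.56 (log2 3.09 ± 0.17) and the ferritin light chain Ftl1 from 10.14, 10.15 and 10.49 to 11.81, 11.85 and 11.85 (log2 1.58 ± 0.12). The third riser was Blvrb (0.53 ± 0.15), a call lost without Fed rat 1 or 2 or P3 rat 3. The heavy chain Fth1 did not pass, at -0.11 ± 0.07. Alas1, which starts haem synthesis, fell by 1.64 beside Tfrc. Of 45 antioxidant genes 22 rose and 12 fell, with a median of 0.26. The risers include the regulator Nfe2l2 (NRF2, 1.93 ± 0.10) and its known targets Gclm (2.14 ± 0.07), Nqo1 (2.19 ± 0.13), Gsr (2.10 ± 0.10) and Txnrd1 (1.69 ± 0.13). Gclm went from 7.66, 7.62 and 7.67 to 9.76, 9.81 and 9.80, with almost no spread in either group. The peroxide-removing enzymes Gpx3 and catalase (Cat) rose by 2.01 ± 0.20 and 0.65 ± 0.14. Those that fell include Gpx1, another glutathione peroxidase, at 9.52, 10.10 and 9.96 in fed and 7.84, 7.46 and 7.88 in P3 rats (log2 -2.13 ± 0.21), the glutaredoxin Glrx at -2.09 ± 0.23, and the mitochondrial Prdx3 and Sod2 at -0.89 ± 0.08 and -0.85 ± 0.07. Of 35 heat shock proteins and chaperones 13 rose and 9 fell. The small muscle forms Hspb3, Hspb6, Hspb2 and Cryab fell, at -2.17, -1.80, -1.61 and -1.14, Hspb7 rose (0.98 ± 0.23), and Hspa8 did not pass (0.06 ± 0.07). In the endoplasmic reticulum 11 of 28 rose, with Dnajb9 at 1.21 ± 0.10 and Xbp1 at 1.1 ± 0.08, and 5 fell, with Hspa5 not called (-0.08 ± 0.15).

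Matrix genes fell strongly and unevenly between rats. Of 31 collagens and matrix proteins 23 fell and 3 rose, with a median of -1.07. Col1a1 stood at 12.47, 12.43 and 12.47 in the fed rats and 9.56, 7.77 and 7.50 in the P3 rats (log2 -4.18 ± 0.57, adjusted p = 0.000487). Col3a1 stood at 10.76, 10.81 and 11.04 in fed and 7.68, 6.56 and 6.94 in P3 rats (log2 -3.81 ± 0.36) and periostin (Postn) at 8.99, 8.45 and 9.45 in fed and 6.71, 5.32 and 5.18 in P3 rats (log2 -3.23 ± 0.41). The first P3 rat was the highest of its group in all 3 genes, yet below every fed rat. Without that rat Col1a1 was lower by 4.82. All 6 fibrillar chains of types I, III and V fell, with a median of -2.45. Omd, Timp3 and Lox rose, by 2.98 ± 0.24, 1.06 ± 0.15 and 0.99 ± 0.29, the Lox call being lost without Fed rat 2 or 3 or P3 rat 1 or 3, and decorin (Dcn) did not pass, at 0.39 ± 0.15. Markers of fibroblasts and their precursors, which share these collagens, moved with the group. Of 12 such markers 9 fell, with a median of -1.19, and their mean level lay between 8.89 and 9.09 in the fed and between 7.0 and 7.80 in the P3 rats. Among those that are no collagens Cd34, Ly6c, Fap and Dpt fell, at -1.58, -1.25, -1.13 and -1.07, while Pdgfra, which defines the precursors, did not pass (-0.39 ± 0.29). The part of cell number in the matrix values was not tested.

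**Figure D4:**
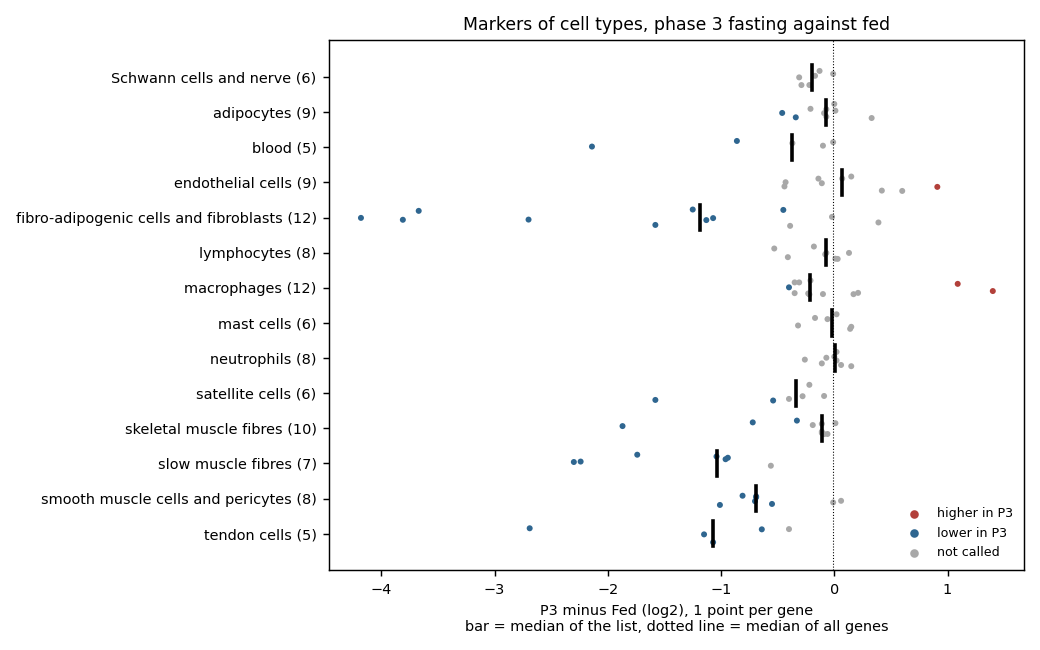
Difference between P3 and Fed (log2) of each measured marker of 14 cell types, with the number of markers in brackets, red for markers that rose, blue for those that fell and grey for those not called. The black bar is the median of the list and the dotted line that of all genes. Lists of fibroblasts, tendon cells and slow fibres had medians of -1.19, -1.07 and -1.04, while no marker of neutrophils, lymphocytes or mast cells was called. The markers of these 3 cell types were dim, with list means of 4.45 to 5.27 per rat, where few genes are called.

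Few markers of immune cells and of the endothelium passed. Of 12 macrophage markers 2 rose and 1 fell, and without Fed rat 3 or P3 rat 2 or 3 none fell. Cd163, the haemoglobin scavenger, stood at 6.98, 7.43 and 7.51 in fed and 9.24, 8.13 and 8.75 in P3 rats (log2 1.4 ± 0.33) and Lgals3 rose by 1.09 ± 0.15, while Cd68, Csf1r, Adgre1 and C1qa did not pass, at -0.21 to -0.35. No marker of neutrophils (8), lymphocytes (8), mast cells (6) or Schwann cells (6) passed the limma test. The mean level of the first 3 lists was at most 4.54, 5.27 and 5.12 in any fed or P3 rat. Few genes of any kind were called at such levels, so the lack of calls does not show that these cells were unchanged. Of 9 endothelial markers Pecam1 rose (0.91 ± 0.17), and Cdh5, Kdr and Tie1 did not pass, at -0.14 ± 0.15, -0.43 ± 0.25 and -0.44 ± 0.16. Of 8 markers of smooth muscle cells and pericytes 6 fell, with a median of -0.69, and of 5 tendon markers 4 fell, led by Tnmd (-2.69 ± 0.23). Of 6 satellite cell markers Cdh15 and Chodl fell, at -0.54 ± 0.14 and -1.58 ± 0.23, and the Cdh15 call was lost without Fed rat 1 or 2 or P3 rat 1 or 3. Haemoglobin beta (Hbb) fell from 9.38, 9.36 and 9.17 to 7.18, 6.93 and 7.40 (log2 -2.14 ± 0.16). The part of this difference in haemoglobin RNA in the other results was not tested. Of 28 interferon-induced and antigen presentation genes 11 fell and 2 rose, and the 11 were 5 without Fed rat 3 and 6 without Fed rat 2 or P3 rat 2. Oas1k rose against the rest, from 5.16, 5.58 and 5.88 to 9.05, 8.35 and 9.03 (log2 3.27 ± 0.26), and B2m fell by 0.76. Of 32 genes of the cell cycle 12 fell and 5 rose, the 12 being 7 without Fed rat 2, with Ccnd1 at 7.16, 7.55 and 7.49 in fed and 5.14, 5.26 and 5.33 in P3 rats (log2 -2.15 ± 0.13). Of 40 splicing factors 21 rose and 3 fell, led by the cold-induced Rbm3 (1.69 ± 0.13).

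P2 rats fast but still spare protein. Both phases are set against the same 3 fed rats, so their differences from Fed are given side by side, and the contrast of P3 with P2 is the test. Against Fed, 1026 genes rose in P2, which is 7.07%, and 808 fell, which is 5.57%. Between the phases 1647 genes were higher in P3, or 11.4%, and 1515 lower, or 10.4%. Of the 33 proteasome genes 28 were higher in P3 than in P2, and their median against Fed was 0.37 in P2 and 1.11 in P3. For ribosome biogenesis 28 of 35 were higher in P3, with medians of 0.30 and 0.96. All 33 genes listed under complex I were lower in P3 than in P2, with medians of -0.50 and -1.31. Of the 22 triad genes 16 were lower, with medians of -0.17 and -1.15. Of 30 genes of fatty acid oxidation 6 rose and none fell in P2, with a median of 0.14, and 23 were lower and 2 higher in P3 than in P2. Adipocyte markers moved with it, as 5 of 9 rose in P2 and 5 were lower in P3 than in P2, and their part in it was not tested. The glucocorticoid targets were already high in P2, where 17 of 23 rose with a median of 1.37, and 13 were higher and 1 lower in P3 than in P2. The lower one was Angptl4, which was 2.90 above Fed in P2.

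Single genes differed in when they moved. Ampd3 was 0.53 above Fed in P2 and 4.82 ± 0.12 above P2 in P3 (adjusted p = 5.9e-07). Arg2 differed from Fed by -0.12 in P2, where it was not called, and was 5.16 ± 0.28 higher in P3 (adjusted p = 8.49e-06). Mrpl41, Hmox1, Clcn1, Sgcd, Fbp2 and Itgb6 likewise differed from Fed by less than 0.40 in P2 and from P2 by 3.34 ± 0.13, 2.77 ± 0.17, -2.98 ± 0.08, -2.71 ± 0.11, -4.02 ± 0.29 and -4.09 ± 0.34 in P3, of which Clcn1 alone was called in P2. Pdk4, Prodh (proline dehydrogenase), Hbb, Alas1 and Igf1 were called in P2 too, at 3.06, 2.50, -2.07, -1.61 and -1.08 from Fed. Their P3 minus P2 differences of -0.43 ± 0.18, 0.05 ± 0.32, -0.06 ± 0.16, -0.03 ± 0.15 and -0.03 ± 0.22 did not pass. Fbxo32 was 2.28 above Fed in P2 and another 0.82 ± 0.14 higher in P3 (adjusted p = 0.00393). For Trim63 these were 1.49 and 1.09 ± 0.13 (adjusted p = 0.000448).

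**Figure D5:**
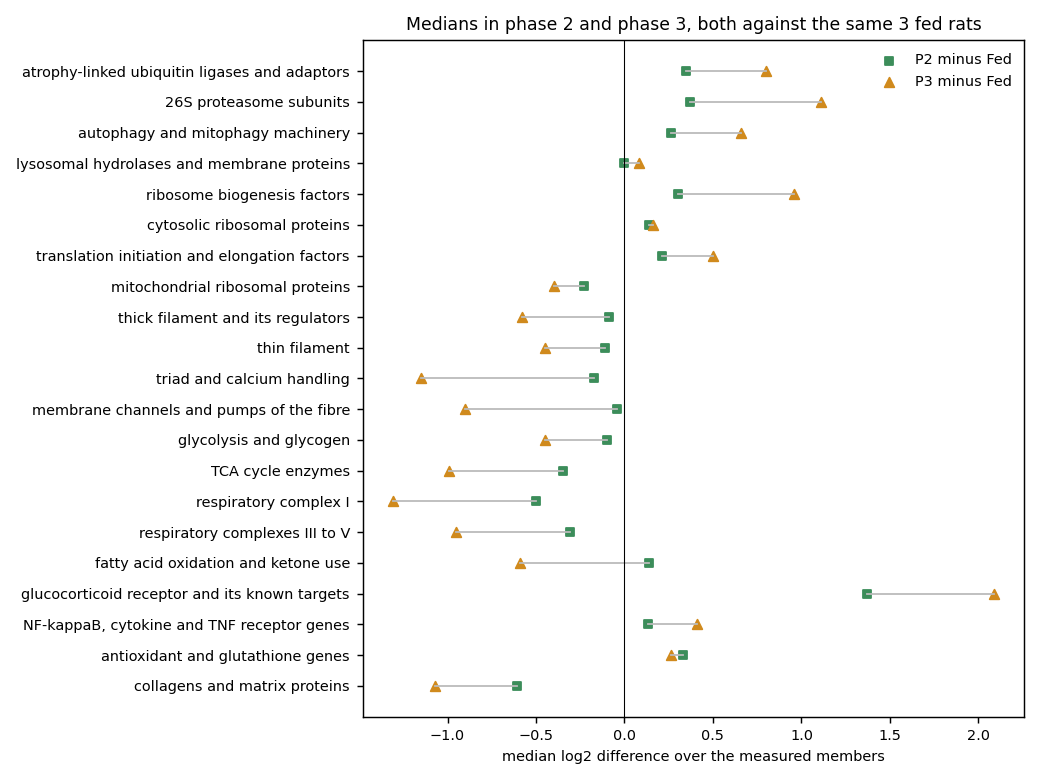
Median log2 difference from Fed over the measured members of 21 gene groups, in P2 (green squares) and in P3 (orange triangles), both against the same 3 fed rats. The proteasome stood at 0.37 in P2 and 1.11 in P3, complex I at -0.50 and -1.31, and fatty acid oxidation at 0.14 and -0.59.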

How the data were processed

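RNA from the tibialis anterior of 9 rats was read on Affymetrix Rat Gene 1.0 ST arrays, 1 rat per array and 3 per group. The log2 intensities of 29215 probe sets were deposited by the authors, who had made them by sketch quantile normalization and median polish, as in the robust multi-array average (RMA), in Expression Console 1.1. Groups were taken from the sample labels, and the study describes its arrays as 3 biological replicates per group. The deposited values were used as they stand. The study removed reference genes before its test, whereas all 29215 probe sets were kept here, also when the methods' test was run. Counts and shares of probe sets therefore have another base than those of the study. A linear model of the group means over all 9 arrays was fitted with limma 3.58.1 in R 4.3.3 (residual df 6, prior df 2.87), with contrasts P3 minus Fed, P2 minus Fed and P3 minus P2, and p-values were adjusted by Benjamini-Hochberg over all probe sets. The number of arrays limits the precision. A platform annotation table named 15310 probe sets with 1 gene symbol, 323 with several and 13582 with none. Where several probe sets carried 1 symbol, the brightest on average was kept, which left 14506 genes. The 52 gene lists, 14 marker lists and the members were chosen with earlier results of these data known, so no list was given a test of its own. Genes were named by a rule: the 15 largest changes in each direction without overlap between groups, and from each list up to 6 called and 3 uncalled members, with all markers and all genes of the metallothionein, iron, ligase, polyamine and purine lists. A further 90 genes were named by role after their values were seen. Promoter windows and their motif matches came from RefSeq on GRCr8, with a window for 11968 genes. The fitting was tested on simulated data. Alternatives were another normalization, a filter on low values, other moderation, fewer arrays, a replicate block, the mean of a gene's probe sets and the methods' own test. Figures were drawn with matplotlib 3.10.9 in Python 3.11.15.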

Additional observations from a re-analysis of the deposited data

Results flagged for a closer look

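In 24 genes P2 and P3 differed from Fed in opposite directions and also from each other, each past the threshold. A called P3 minus P2 difference was part of the rule that chose these genes. That it is called is therefore no result, and its size is given as a description. In 16 of them the gene was higher in P2 and lower in P3, and in 8 the reverse. The 8 with the largest difference between the phases are given here. Crot, which moves medium-chain acyl groups out of peroxisomes, stood at 8.29, 8.30 and 8.30 in the fed rats, 9.59, 9.59 and 9.84 in P2 and 7.51, 7.51 and 7.45 in P3, a P3 minus P2 difference of -2.19. Slc43a2, a carrier of large neutral amino acids, stood at 7.94, 8.01 and 8.06 in fed rats, 7.44, 7.27 and 7.2 in P2 and 9.28, 8.93 and 9.13 in P3, a difference of 1.81. For both genes no rat of one group overlapped another group. Mpp3 differed by -2.21 and Tle1, a corepressor, by -1.83. Chad, a cartilage matrix protein, differed by -1.70, Klf10 by -1.69, the phosphatase gene Ptprs by -1.51 and Asb4 by -1.46. The fall of Tle1 in P3 against Fed was no longer called without any 1 of the arrays other than that of Fed rat 1, and that of Chad without Fed rat 1 or 3 or any 1 P3 rat.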

How the results depend on the processing

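The 4627 probe sets higher and 3911 lower in P3 became 1565 and 1248 under the methods' ANOVA and Tukey test, and 479 and 370 when that test was adjusted by Benjamini-Hochberg. The limma counts ranged from 3772 to 5051 higher and from 3238 to 4216 lower when each array was left out in turn. Replicate numbers were not used to pair the samples, since it is not stated what they mark. Deviations of same-numbered arrays correlated at -0.243 to 0.123 over all groups. Between Fed and P3 they correlated at 0.0148 to 0.123, against -0.161 to 0.0463 for arrays with different numbers. With 3 arrays per group these values cannot show whether samples were paired. With the replicate block 4331 were higher and 3599 lower. A second quantile normalization gave 4302 and 4181, and subtraction of array medians 4846 and 3631. Of 348 genes with values in the text 278 were called, 262 of them in every setting other than the methods' test, which called 190, or 98 after adjustment. Akt1, Akt2, Mstn, Mtor, Eif4e and Traf6 were called here but not by the methods' test, and the study too lists them as not significant. Those that lost the call in a setting other than the methods' test were Hk2, Tfam, Bmal1, Dbp, Blvrb, Cdh15, Lox, Myl1, Chad, Tle1, Ampd1, Colq, Mtor, Polrmt, Psmb10 and Runx1. Of 70 not called, 12 passed in some setting: Agrn, Asb2, Dcn, Dusp1, Idh2, Il6, Map1lc3a, Nedd4, Ryr1, Tie1, Tnf and Ucp3. Of 132 counts over gene lists, 74 moved by over 1.5 times under the methods' test and 101 after its adjustment. Under that test, before and after adjustment, the genes that fell went from 6 to 1 and 0 among slow fibre markers, from 10 to 0 and 0 among lysosomal genes, from 19 to 7 and 2 in fatty acid oxidation, from 40 to 19 and 5 among mitochondrial ribosomal proteins, from 11 to 1 and 0 among interferon-induced genes and from 23 to 10 and 1 among collagens and matrix proteins. None of the called values changed sign. Signals near background limit dim genes, where few calls were made.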
